A study of Homo sapiens with 6 samples.

Results

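The collagen genes are the protein-coding genes of the RefSeq GRCh38.p14 table whose symbol has the form COL, a number, A, a number. They were selected by symbol, and 44 of 20037 protein-coding genes on chromosomes 1 to 22, X and Y matched. Peaks were assigned to a gene when they overlapped its body or the 5 kb beyond either end. The family was proposed with the strong occupancy of one member, COL23A1, in view, so its peak values are given as descriptions without tests.

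The peaks come from CUT&RUN, in which an antibody tethers a nuclease to a chromatin protein and the DNA cut loose around it is sequenced. The target was MYT1L, a zinc-finger transcription factor of neurons, in 4 libraries. Another 2 libraries were made with IgG, which has no chromatin target, as the negative control. All 6 libraries came from wild-type cells of H1, an established human embryonic stem cell line, at day 30. The series text calls the cells cortical interneurons made from stem cells, while the sample labels name embryonic stem cells. No genotype, drug or time point differed between the groups, only the antibody. The peak lists hold no expression values, so neuronal identity could not be checked against marker genes. They come from bulk cells, where strong occupancy in some cells and weaker occupancy in all cannot be told apart.

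Collagens are proteins of 3 chains wound into a triple helix, and each gene encodes 1 kind of chain. Fibrillar collagens form the fibres of bone, skin, tendon and cartilage, type IV collagens form the sheet of basement membranes, and other classes sit on fibril surfaces, link cells to the matrix or span the cell membrane. Most are made by connective tissue, endothelial and epithelial cells, although a few, among them COL19A1 and COL25A1, are known in neurons. MYT1L is best known for repressing genes of other lineages in neurons.

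The MYT1L lists held between 12310 and 30086 peaks on these chromosomes and the IgG lists 976 and 998. Read depth is not given in the lists. The lowest background shared by peaks of a library, an estimate of depth derived from the deposited fold and p, was 0.421 fragments in MYT1L replicate 2, between 0.895 and 1.18 in the other MYT1L libraries, and 0.329 and 0.190 in IgG replicates 1 and 2. MYT1L replicate 2 was thus the shallowest MYT1L library and also had the shortest list, and both controls were shallower still.

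Over whole gene windows, collagen genes carried fewer MYT1L peaks per Mb than protein-coding genes together. Deep inside the genes, regions of joined peaks with any library support had a density much like that of all genes (12.5 against 11.7 per Mb). Those seen in at least 3 MYT1L libraries and without IgG peak numbered 0.616 against 1.51 per Mb there. With 4 such regions that difference was not detectable, as detailed further on. MYT1L replicates 1 to 4 had 43, 19, 40 and 64 peaks at the 44 genes, and each IgG library had 1. Per Mb of collagen gene and flank this was 5.64 ± 2.50 peaks (SD, n = 4) in MYT1L libraries, against 11.0 ± 3.98 over all protein-coding genes and their flanks in the same libraries. The collagen value was the lower one in each of the 4 libraries, being 5.84 against 13.0, 2.58 against 6.29, 5.43 against 9.31 and 8.69 against 15.3 peaks per Mb in replicates 1 to 4. The windows of the 44 genes span 7.36 Mb in all. Shorter genes have a larger part of their window at gene ends, so this comparison mixes gene length with peak density. With 4 libraries against 2 the smallest p of a two-sided exact permutation test is 0.133, so no test between antibodies was run.

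**Figure D1:**
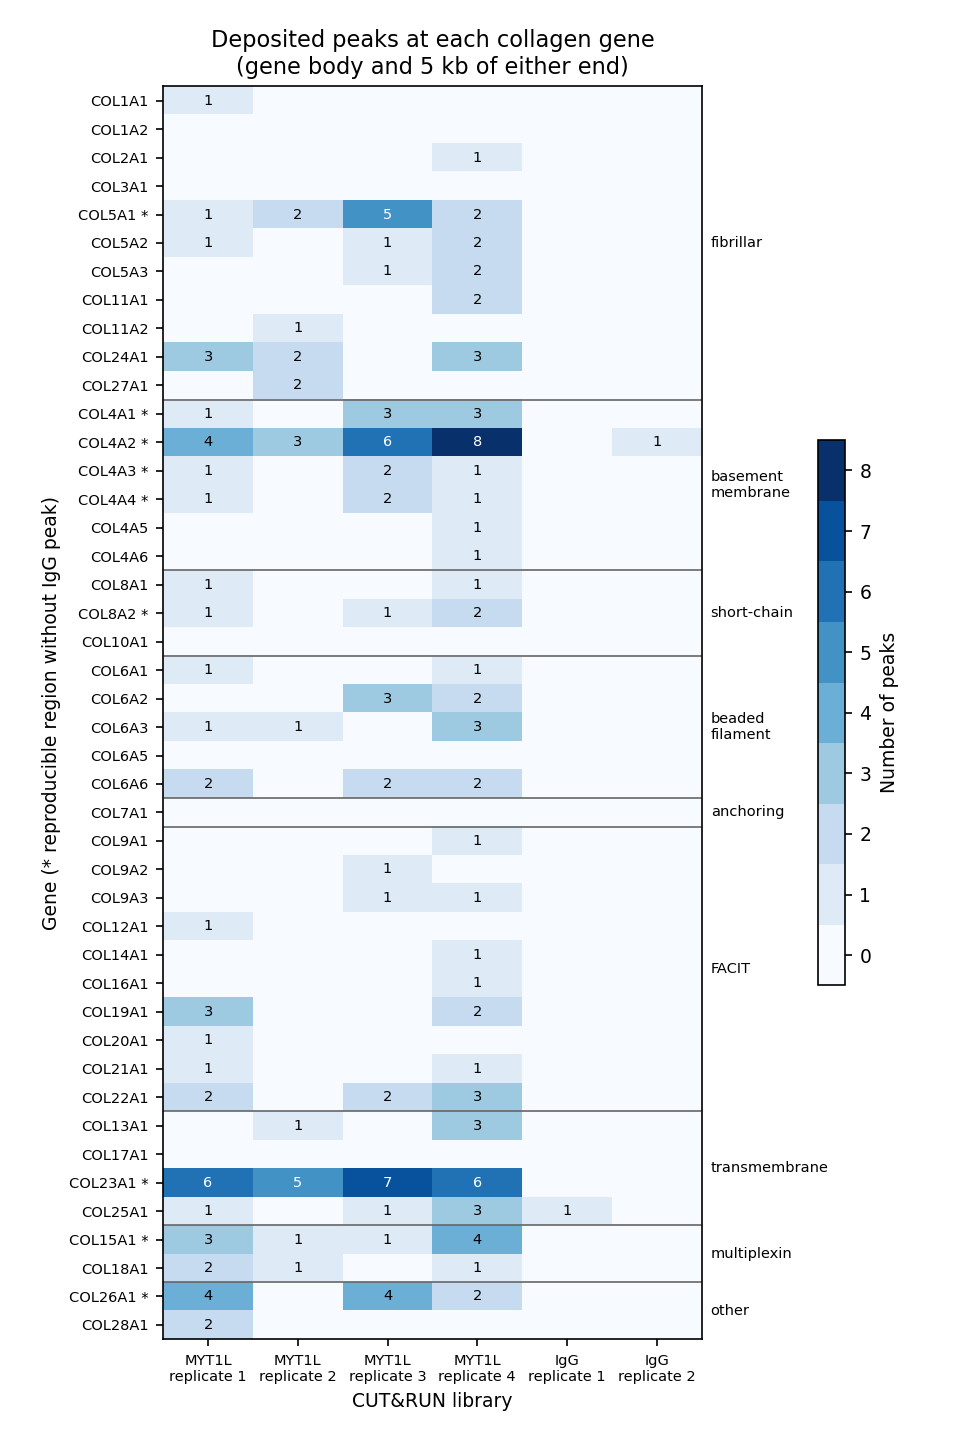
Number of deposited peaks at each of the 44 collagen genes (rows, grouped by structural class) in each of the 6 libraries (columns); blank cells are 0 and an asterisk marks genes that have a reproducible region free of IgG peaks. COL23A1 has 5 to 7 peaks in each MYT1L library and COL4A2 3 to 8, while most rows are nearly empty and the 2 IgG columns hold 1 peak each.

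Peaks of the MYT1L libraries that overlapped by at least 1 bp were joined into a region, and regions supported by 3 or 4 MYT1L libraries are called reproducible. The collagen genes had 119 regions. Of these, 89 were seen in 1 library, 19 in 2, 6 in 3 and 5 in all 4. Of the 11 reproducible regions, 10 overlapped no IgG peak. They lay at 9 of the 44 genes (20.5%), which are COL4A1, COL4A2, COL4A3, COL4A4, COL5A1, COL8A2, COL15A1, COL23A1 and COL26A1. Such a region was present at 48.0% of all protein-coding genes. A peak in any MYT1L library was found at 38 of the 44 genes (86.4%), next to 84.1% of all protein-coding genes, which are shorter. A region in all 4 libraries without IgG peak was present at 3 genes (6.82%), against 25.3% of all genes. The number of collagen genes moved with the libraries used, as did the share of all genes. It was 16 (36.4%, all genes 63.3%) without MYT1L replicate 2 and 16 (36.4%, all genes 59.9%) without replicate 3. In these settings 2 of the other 3 libraries sufficed. With only peaks of a −log10 q of 5 or more it was 5 (11.4%, all genes 30.6%). The 10 regions became 17, 23, 22 and 16 when MYT1L replicates 1 to 4 were left out in turn. The share of collagen genes stayed below that of all genes in each of the 15 alternative settings.

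Collagen genes are long, with a median of 145 kb against 24.1 kb for all protein-coding genes, and longer genes have more room for a region. The share was therefore read within length classes. Neither of the 2 collagen genes under 20 kb was called, that is, had a reproducible region free of IgG peaks (34.7% of all genes of that length). Of the 10 from 20 to 50 kb, 1 had a region (52.7%), and of the 6 from 50 to 100 kb none had (59.0%). Between 100 and 200 kb it was 5 of 12 (41.7%, against 65.7%), and at 200 kb or longer 3 of 14 (21.4%, against 70.2%). The collagen share was the lower one in all 5 classes. Over genes of 100 kb or longer it was 8 of 26 (30.8%), against 67.6%.

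**Figure D2:**
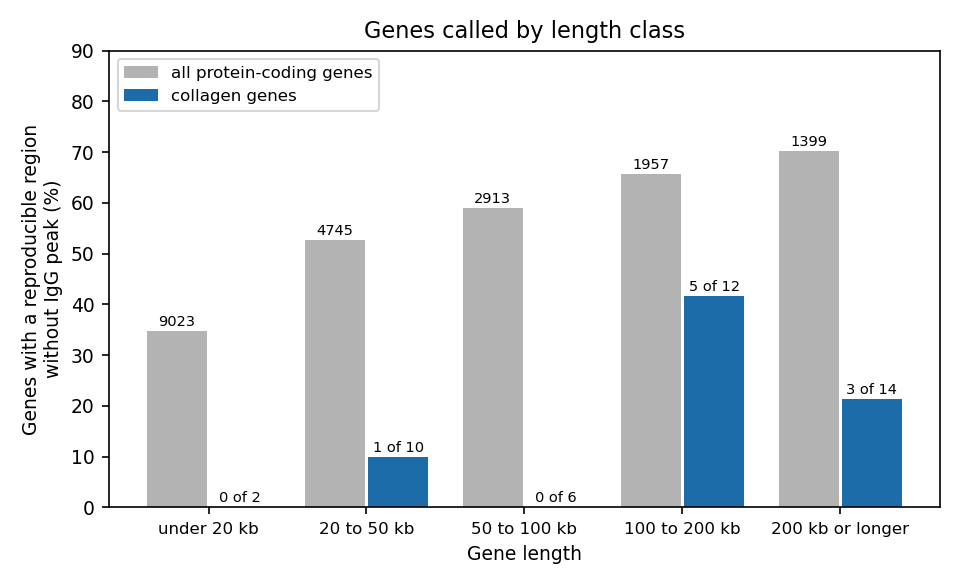
Percent of genes that have a reproducible MYT1L region free of IgG peaks (vertical axis) by class of gene length (horizontal axis), for all protein-coding genes (grey bars, number of genes above) and collagen genes (blue bars, number with a region of the number in the class). The grey bars climb from 34.7% to 70.2% with length, and the blue bars stay below them, with 41.7% at most.

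COL23A1 encodes the chain of type XXIII collagen, a homotrimer anchored in the cell membrane. It lies on chromosome 5 from 178237618 to 178590393 (GRCh38, minus strand, 353 kb). Its strongest region, from 178585518 to 178585746, lay in the gene body with its summit 4.74 kb inside the gene start. Exons and introns are not in the table and were not assigned. The deposited fold was 20.7, 14.4, 15.04 and 19.3 in MYT1L replicates 1 to 4, a mean of 17.4 ± 3.12 (SD, n = 4). The 4 libraries thus all lay high, and the lowest of them exceeded the highest fold of every other reproducible collagen region. The pileup at the summit, derived from the deposited values, was 143, 38, 72 and 91 fragments over local backgrounds of 5.95, 1.71, 3.85 and 3.77. The lowest pileup was that of the shallowest library. The peaks were 203 to 227 bp wide and the 4 summits lay within 54 bp. The whole region measured 229 bp, against a median of 889.5 bp for the 5030 regions seen in all 4 libraries without IgG peak. By mean fold it ranked 10th of those 5030, whose median was 6.72. This rank is what brought the family to attention and is no evidence of its own.

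A second COL23A1 region seen in all 4 libraries lay 64.9 kb inside the start, from 178525151 to 178525648. Its folds were 8.09, 6.53, 9.52 and 5.20 in replicates 1 to 4, a mean of 7.33 ± 1.88 (SD, n = 4), and its 4 summits lay within 58 bp. It was of ordinary strength, at rank 1606 of 5030. COL23A1 also had 4 regions seen in 2 libraries. They lay 71.5 kb and 195 kb inside the start, 351 kb inside the start near the other gene end, and in the flank beyond that end. The last of these covered the start window of PHYKPL, a neighbouring gene, and cannot be credited to COL23A1 alone. With 14 regions in all, COL23A1 had more than any other collagen gene, COL4A2 following with 11.

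COL5A1 encodes a chain of type V collagen, which controls the diameter of collagen fibrils. It is the only fibrillar gene of the 11 with a reproducible region. That region, on chromosome 9 from 134729525 to 134729828, lay 87.9 kb inside the start and was seen in all 4 libraries. Its folds were 8.04, 10.04, 6.07 and 9.18 in MYT1L replicates 1 to 4, a mean of 8.33 ± 1.71 (SD, n = 4). The shallowest library here had the highest fold and replicate 3 the lowest. The peaks were narrow, from 227 to 297 bp, with the summits within 43 bp of each other.

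COL4A2 encodes one of the chains of the type IV network common to nearly all basement membranes, including those of brain vessels. It had 4 reproducible regions, the most of any member. The region farthest inside, on chromosome 13 from 110480933 to 110482019, lay 174 kb from the start with folds of 8.11, 9.62, 6.396 and 7.13 in replicates 1 to 4 (mean 7.81 ± 1.39, SD, n = 4). It was broad, with peaks of 802 to 1087 bp. Another, from 110355393 to 110355860 and 48.2 kb inside, had folds of 5.56, 6.57 and 5.54 in replicates 1, 2 and 4 and no peak in replicate 3.

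The remaining internal COL4A2 region coincided with an IgG peak. It ran from 110385457 to 110386051, 78.3 kb inside the start, with folds of 8.38, 9.003, 5.73 and 9.86 in MYT1L replicates 1 to 4. The peak of IgG replicate 2 there had a fold of 9.09, inside the range of the MYT1L libraries. Its pileup, however, was 13 fragments over a background of 0.540. In MYT1L replicates 1 to 4 the pileup was 30 over 2.70, 24 over 1.78, 16 over 1.97 and 31 over 2.25. Relative to its background, the IgG pileup was thus higher than that of each MYT1L library. The region was left out of the counts above. The only other IgG peak at a collagen gene was in IgG replicate 1 at COL25A1, with a fold of 6.14, over a region of 1 MYT1L library. An IgG peak thus touched 2 of 44 collagen genes (4.55%), against 4.16% of all protein-coding genes.

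The other 5 reproducible regions lay at gene starts. Strand, and with it which gene end is the start, came from the RefSeq promoter table, which had an entry for 32 of the 44 genes. Type IV collagen genes stand in head-to-head pairs that share the DNA between their starts, so 2 of these regions each serve 2 genes. The region between COL4A1 and COL4A2 (chromosome 13, 110306843 to 110308337) had folds of 5.72, 4.40 and 5.77 in MYT1L replicates 1, 3 and 4 (mean 5.30 ± 0.775, SD, n = 3). The region between COL4A3 and COL4A4 (chromosome 2, 227163899 to 227164930) had 5.85, 5.91 and 6.29 in the same 3 libraries (6.02 ± 0.237). COL4A3 and COL4A4 encode chains found mainly in the basement membranes of kidney, inner ear and eye.

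COL15A1, on chromosome 9, encodes a multiplexin, a collagen at the border of basement membranes whose helix is interrupted many times. Its region, from 98943675 to 98944493, had folds of 5.47, 4.82 and 7.27 in replicates 1, 3 and 4 (5.85 ± 1.27, SD, n = 3), and it also overlapped the noncoding gene COL15A1-AS1. COL26A1, on chromosome 7, had a region from 101362817 to 101363424 with folds of 3.25, 5.06 and 5.78 (4.70 ± 1.30, SD, n = 3). COL8A2, on chromosome 1, encodes a short-chain collagen of the membrane behind the cornea. Its region, from 36125364 to 36125721, had folds of 4.32, 4.83 and 3.77 (4.31 ± 0.532, SD, n = 3). None of these 5 regions had a peak in MYT1L replicate 2, the shallowest library. The same library was the one lacking in 64.8% of all 6061 regions seen in 3 libraries without IgG peak. The part its depth had in this pattern was not tested.

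**Figure D3:**
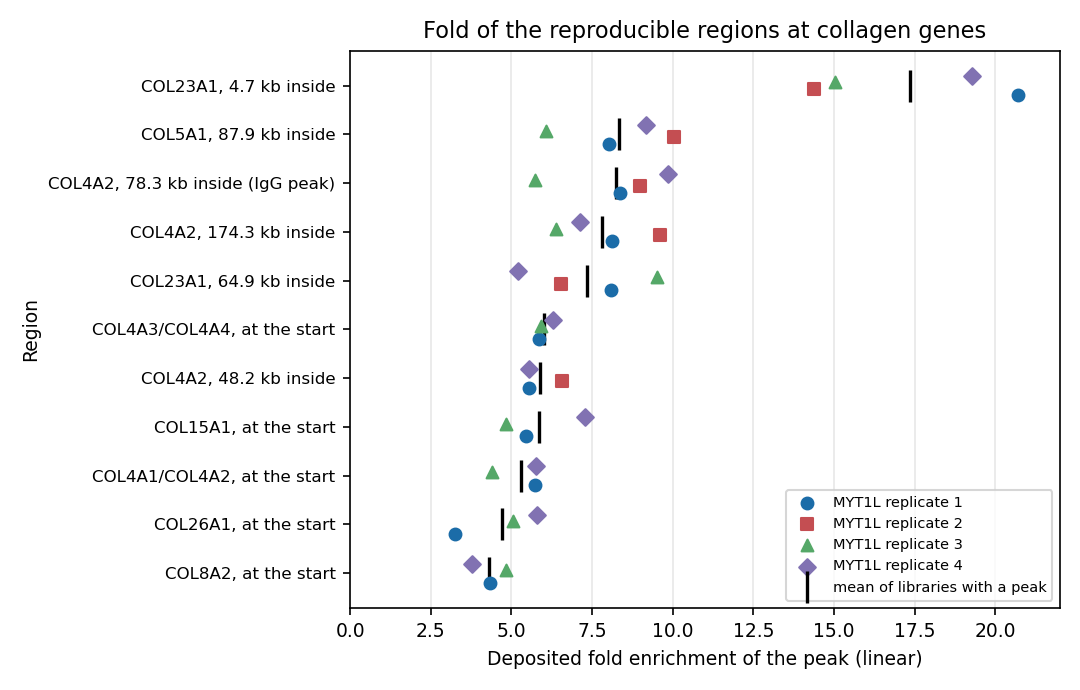
Deposited fold (horizontal axis, linear) of the peak of each MYT1L library (symbols, offset vertically for legibility) in the 11 reproducible regions at collagen genes (rows, ordered by mean fold, bars mark the mean of libraries with a peak). The COL23A1 region 4.7 kb inside the gene stands at 14.4 to 20.7, all other points lie at or below 10.04, and the regions at gene starts have no point from replicate 2.

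The start sequences show the DNA at these regions, which cover the stretches of COL8A2 and COL15A1 only in part. Of the 250 bases upstream of the start, those outside any protein-coding gene body are given 5′ to 3′ on the strand of the named gene, from RefSeq (GRCh38.p14), with 1 gene of each pair. Capitals mark CG dinucleotides, which are dense in CpG islands. The COL26A1 stretch lay within the gene body and is not shown.
COL4A2 (chr13:110307158-110307283, plus strand): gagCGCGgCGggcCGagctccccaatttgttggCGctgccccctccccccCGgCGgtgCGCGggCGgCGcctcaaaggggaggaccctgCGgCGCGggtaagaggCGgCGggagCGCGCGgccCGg
COL4A3 (chr2:227164489-227164623, plus strand): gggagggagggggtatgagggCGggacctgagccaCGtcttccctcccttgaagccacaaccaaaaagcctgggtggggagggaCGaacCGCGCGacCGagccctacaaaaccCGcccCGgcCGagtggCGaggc
COL8A2 (chr1:36125223-36125472, minus strand): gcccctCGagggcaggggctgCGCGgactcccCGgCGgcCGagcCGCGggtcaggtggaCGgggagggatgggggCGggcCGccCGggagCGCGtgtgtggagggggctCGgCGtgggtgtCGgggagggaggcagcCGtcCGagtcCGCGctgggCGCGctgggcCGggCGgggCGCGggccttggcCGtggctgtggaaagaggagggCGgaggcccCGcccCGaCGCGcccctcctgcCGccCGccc
COL15A1 (chr9:98943657-98943906, plus strand): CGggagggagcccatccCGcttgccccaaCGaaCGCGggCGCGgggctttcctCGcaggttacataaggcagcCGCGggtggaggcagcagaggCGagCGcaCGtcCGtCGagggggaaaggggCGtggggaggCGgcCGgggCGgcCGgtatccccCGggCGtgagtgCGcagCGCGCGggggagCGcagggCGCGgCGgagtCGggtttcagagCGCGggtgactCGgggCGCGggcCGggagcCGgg
Of the bases shown, between 68.1% (COL4A3, 135 bases) and 82.0% (COL8A2, 250 bases) were G or C. CG occurred 20 times in 126 bases at COL4A2, 11 times at COL4A3, 35 times at COL8A2 and 38 times in 250 bases at COL15A1. AAGTT, the core that MYT1-family zinc fingers recognise, was in none of the 4 stretches on either strand (reverse complement AACTT).

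Over the 300-base start windows (250 bases before and 50 after the start), the 7 collagen windows under a reproducible region had a GC content of 66.7% to 82.0%, with a median of 76.0%. The windows of COL4A1 and COL4A2 overlap, as do those of COL4A3 and COL4A4. These 7 windows thus lie under 5 regions and are not independent. The other 37 collagen windows, from 25 genes, had a median of 60.3% and ranged from 32.3% to 86.7%. The same direction held over all protein-coding genes, where the median was 68.0% for 7859 windows under a reproducible region and 58.0% for the other 14340. AAGTT on either strand was in 1 of the 7 collagen windows under a region and in 17 of the 37 others. Over all genes it was in 20.5% of windows under a region and 35.3% of the others, and in 30.05% of all windows. The longer AAAGTT, which contains AAGTT, was in none of the 7, in 10 of the 37 and in 10.8% of all windows. GC content and these letters are not independent, since a GC-rich window has fewer A and T to form them.

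Starts with a region were thus 7 of the 32 collagen genes in the promoter table (21.9%), against 40.5% of all genes in it. Within 1 kb of either end, a reproducible region free of IgG peaks was present at 7 of 44 genes (15.9%), against 38.9% of all genes. This number fell to 0 when all 4 libraries were required or when every MYT1L list was cut to its 12310 strongest peaks, and it was 13 without MYT1L replicate 2 and 12 without replicate 3. The share of all genes at an end was not worked out in these settings. Over the whole gene window the share of all genes moved too, from 48.0% to 25.3%, 33.7%, 63.3% and 59.9% in the same order. Whether the ends of collagen genes moved more was not tested. In the body beyond 1 kb of both ends, 4 of 44 genes (9.09%) had such a region, against 15.1% of all genes that extend so far. These 4 are COL23A1, COL5A1, COL4A2 and COL26A1. The COL26A1 region, whose summit lay 638 bp inside, crosses the 1 kb line and is counted both at the end and inside; COL4A2 is also in both counts. At this length the fairer comparison is with genes of 100 kb or longer. There, 6 of 26 collagen genes had a region at an end, against 51.8%, and 4 of 26 had one farther inside, against 35.5%.

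Strength ran the other way. The 5 start regions had mean folds of 4.31 to 6.02 with a median of 5.30, and none was in all 4 libraries. The 5 internal regions without IgG peak had mean folds of 5.89 to 17.4 with a median of 7.81, and 4 of them were in all 4 libraries. The highest, at COL23A1, is the occupancy with which the family was proposed. Outside COL23A1 the internal regions had mean folds of 5.89 and 7.81 (COL4A2) and 8.33 (COL5A1). Over all protein-coding genes, reproducible regions at gene ends had a median fold of 6.66 (6497 regions, 51.4% of them in all 4 libraries) and internal ones 5.77 (2217 regions, 38.7%). At 5 against 5 regions this order is a description of the collagen genes.

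Deep inside the genes, beyond 5 kb of any protein-coding gene end, collagen genes held 12.5 regions per Mb (81 regions of any support in 6.50 Mb, 95% exact Poisson interval 9.90 to 15.5), next to 11.7 per Mb over all genes. Reproducible regions without IgG peak numbered 4 there, or 0.616 per Mb (0.168 to 1.58), against 1.51 per Mb. The interval covers counting error only and includes the value of all genes, so a difference inside the genes was not detectable with 4 regions.

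**Figure D4:**
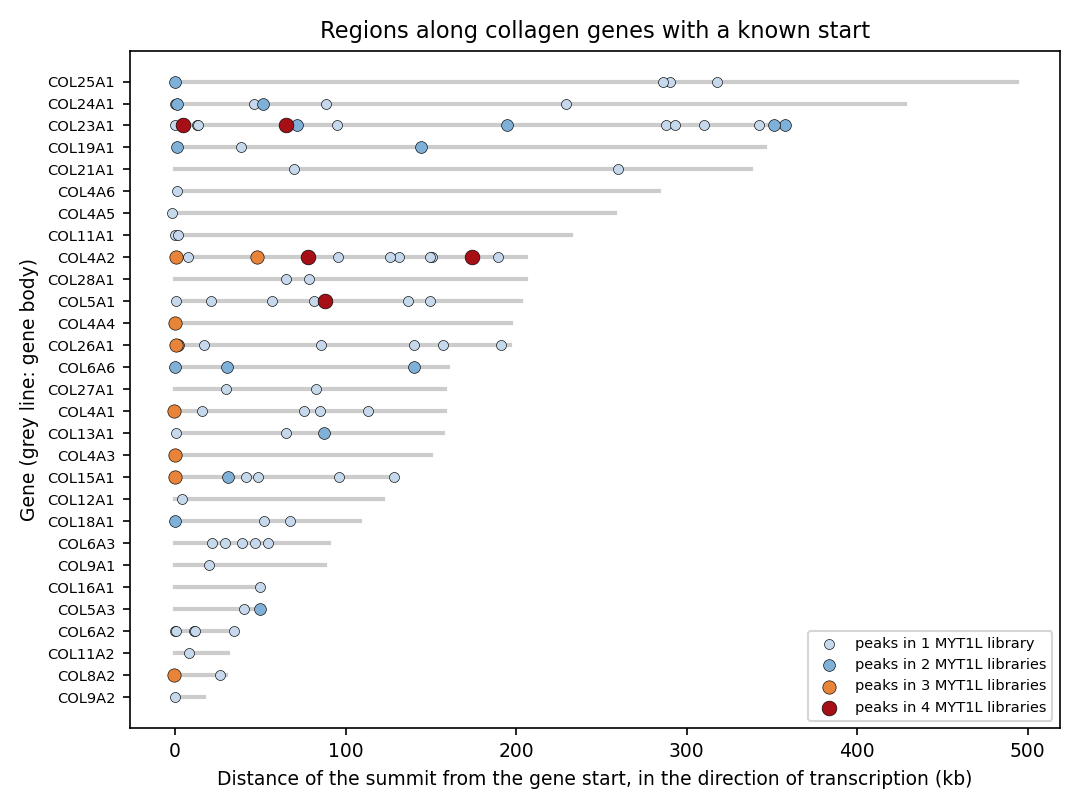
Position of each region along the 29 collagen genes that have a region and a start in the promoter table (rows, ordered by length), as the distance of the summit from the gene start in kb (horizontal axis). Colour and size give the number of MYT1L libraries with a peak. Regions of 3 libraries (orange) lie at the start except 1 that is 48.2 kb inside COL4A2, regions of all 4 (dark red) lie inside COL23A1, COL4A2 and COL5A1, and most other regions are of 1 library (pale).

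By structural class, 4 of 6 basement membrane genes were called, each with a region at a shared start, so that 2 regions give the 4 calls at starts. Their median length was 202 kb, and of all genes of 200 kb or longer 70.2% were called. COL4A5 and COL4A6, the third pair, on the X chromosome, had 1 region between them, of MYT1L replicate 4 alone. Of the 11 fibrillar genes 1 was called, of the 3 short-chain genes 1, of the 4 transmembrane genes 1, of the 2 multiplexins 1 and of the 2 unclassified genes 1. None was called of the 10 FACIT genes, whose products decorate fibril surfaces, of the 5 type VI genes of beaded filaments, or of COL7A1, whose product forms the anchoring fibrils of skin. Median lengths ran from 31.3 kb (COL7A1) to 255 kb (transmembrane genes). Of all genes in the length class of that median, 52.7% were called for COL7A1 and 59.0% for fibrillar, short-chain and type VI genes. It was 65.7% for FACIT genes and multiplexins and 70.2% for transmembrane and unclassified genes. The structural classes were not tested against each other.

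COL1A1, COL1A2 and COL3A1 encode the bulk of the collagen of bone, skin and vessel walls. COL1A1 had 1 peak, in MYT1L replicate 1, and COL1A2 and COL3A1 had none. COL2A1, the cartilage collagen, had 1 peak, in replicate 4. No MYT1L peak at all was found at 6 genes, which besides COL1A2, COL3A1, COL10A1 and COL17A1 are COL6A5 and COL7A1. That leaves the 86.4% with a peak given above, next to 84.1% of all genes. COL10A1 is made by enlarging cartilage cells and COL17A1 holds skin cells to their basement membrane. None of these 6 had an IgG peak either.

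For 9 genes the best region was seen in 2 MYT1L libraries, just short of the call. They are COL5A2, COL5A3, COL6A6, COL13A1, COL18A1, COL19A1, COL22A1, COL24A1 and COL25A1. The mean folds of their best regions ran from 4.03 at COL18A1 to 8.44 at COL19A1. COL19A1, expressed by some cortical and hippocampal interneurons, had a region 997 bp inside its start with folds of 6.41 and 10.5 in replicates 1 and 4, and another 144 kb inside with 5.95 and 5.28 in the same libraries. COL25A1, a neuronal membrane collagen found in amyloid plaques, had one over its start with 5.36 and 7.97 in replicates 3 and 4. The region of COL18A1, the source of endostatin, also lay over the start, with 3.46 and 4.59 in replicates 1 and 4. In the COL5A2 window the region overlapped an end of COL5A2 and the start window of the neighbouring gene WDR75. It cannot be credited to COL5A2 alone, whose start is not in the promoter table. A further 20 genes had no region in more than 1 library. At the edge of the 5 kb window, the only reproducible region outside a gene body that was counted began 142 bp beyond COL8A2, and the nearest one left out lay 5945 bp beyond its other end and 113 bp from an end of ADPRS. Another left out, 6646 bp beyond COL6A2, was seen in all 4 MYT1L libraries with a mean fold of 6.81. The nearest other gene, FTCD, lay 45156 bp from it.

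How far the missing IgG peaks can be read depends on depth. Each MYT1L pileup and its background were scaled down by the ratio of the lowest shared backgrounds, and the −log10 p the scaled peak would have in each IgG library was compared with the lowest in that list (5.54 and 5.58). The COL23A1 region 4.74 kb inside the start passed in all 8 pairs of a MYT1L and an IgG library, at 13.4 to 41.3. The COL5A1 region passed in 7 of 8 pairs, the COL4A2 region 174 kb inside in 6 of 8, and the COL23A1 region 64.9 kb inside in 4 of 8. The COL4A2 region 48.2 kb inside passed in 2 of 6. Of the start regions, those of COL4A1 and COL4A2, COL15A1 and COL26A1 passed in 1 of 6 pairs each, and those of COL4A3 and COL4A4 and of COL8A2 in none of 6. At the starts a lack of signal in IgG and its lower depth cannot be told apart. The same limit applies to the internal regions in the pairs that did not pass.

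Genes whose products make, export, cut, crosslink, bind or degrade collagen are not members and were counted by the same rule. Of 49 such genes 28 (57.1%) were called, next to the 48.0% of all protein-coding genes. Their median length was 33.8 kb, and of all genes from 20 to 50 kb 52.7% were called. Of 14 genes for hydroxylation and glycosylation of collagen chains 11 were called, and of 6 for folding and export 5. Among propeptide-processing genes it was 4 of 8, among crosslinking enzymes 2 of 5, among receptors 5 of 11 and among collagenases and related proteases 1 of 5. Of all genes in the length class of the group's median, 65.7% were called for propeptide processing (median 120 kb). It was 34.7% for the proteases (12.7 kb) and 52.7% for the other groups. The highest mean fold was at P3H2, a prolyl 3-hydroxylase, with 8.06, 6.69, 7.40 and 13.5 in MYT1L replicates 1 to 4 (8.91 ± 3.12, SD, n = 4). ITGA1, a chain of a collagen-binding integrin, followed with 9.38, 6.52 and 10.8 in replicates 1, 2 and 4 and no peak in replicate 3 (8.90 ± 2.17, SD, n = 3). Next came COLGALT2, which adds galactose to collagen, with a mean of 8.37 ± 2.01, and MIA2, which serves collagen export, with 7.87 ± 2.62 (SD, n = 4 each). P4HA1, a subunit of prolyl 4-hydroxylase, had 7.85 ± 1.87 (SD, n = 4). Replicate 4 had the highest fold at each of these 5 genes. The neighbouring genes P3H4 and FKBP10 share 1 region, so these counts hold 1 region shared within the list. Sharing with genes outside the list was not examined, so a region need not belong to the listed gene alone. No reproducible region free of IgG peaks was found within 1 kb of an end at the called genes PLOD1, P3H2, MIA2, PCOLCE, LOXL3, ITGA1 and OSCAR. The share of the 49 genes and that of the collagen genes were not tested against each other.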

How the data were processed

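Peak lists of 4 MYT1L and 2 IgG CUT&RUN libraries were used. Replicates are numbered as in the titles, although the names of single peaks in each MYT1L list bear a sample number 1 higher. The titles do not say whether replicates are separate differentiations. Per the submitters' processing notes the build was hg38 and the tools include MACS2; aligner, threshold and control library are not given in the sources used here. The authors deposited 1 list per library, with a fold enrichment (a ratio), a −log10 p, a −log10 q and a score per peak; the score is the truncated −log10 q times 10 and was not used. The fold is the authors' value and was used to describe peaks. In the MACS2 formula 1 is added to both pileup and background, which lowers the fold more where the background is small. Coordinates count from 1.

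Regions, calls and window overlaps were computed with Python 3.11.15 and pandas 2.3.3, and the regions were checked against bedtools 2.31.1 (0 of 49028 differed). The gene calls and pileups were tested on simulated data. Pileups follow from the MACS2 formulas for fold and p, and a whole number fitted within 0.0002 for all 168 peaks at collagen genes. Intervals cover counting error only. Named were COL23A1, every gene with a reproducible region, those whose best region had 2 libraries, those without a peak and those sharing a region; COL1A1, COL2A1 and the pathway genes given with values were chosen after their values were seen. Members and lists were chosen with earlier results of these data known. Alternatives were the peak threshold, libraries required, window, overlap rule, equal list lengths, IgG filter and leaving out each library. Exons and the sequence of internal regions were not analysed here.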

Additional observations from a re-analysis of the deposited data

Results flagged for a closer look

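Of 28 sets of 4 MYT1L values examined (peak numbers, folds, pileups and widths), 1 had a library far from the other 3. At the COL4A2 region 78.3 kb inside the gene, which also holds an IgG peak, the peak of MYT1L replicate 3 was 247 bp wide, against 564 to 594 bp in the other libraries. Its fold there, 5.73, was also the lowest. Chance alone sets a library this far apart in about 1 in 20 such sets.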

How the results depend on the processing

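All alternatives were planned. The 9 collagen genes called became 5 with a −log10 q of at least 5, 18 with 2 libraries, 3 with all 4, 5 with summits within 200 bp, 3 with equal numbers of top peaks, and 9 to 16 leaving out 1 library. The share of all genes, 48.0%, was 30.6%, 65.3%, 25.3%, 37.7% and 33.7% in those 5 settings, 43.2% in gene bodies alone, 51.7% with 10 kb flanks, 50.3% with IgG regions kept, and 48.7% to 63.3% without 1 library. In gene bodies alone 8 collagen genes (18.2%) were called. With 10 kb flanks it was 13 (29.5%), with COL2A1, COL6A2, COL7A1 and COL16A1 gained. The 10 regions became 6 with a −log10 q of at least 5, 29 with 2 libraries, 4 with all 4, 4 with equal numbers, and 10 to 23 without 1 library. The 7 genes called at an end became 2, 14, 0, 2 and 0 in the 5 settings, in the first order, and 7 to 13 without 1 library. The share of all genes at an end was not worked out in the alternatives. The settings differ in the number of peaks, the joining or the number of libraries, and what moved each result was not tested. Leaving out 1 MYT1L library also lowered the requirement to 2 libraries. Peaks per MYT1L library, 41.5, were 19 at the stricter −log10 q; IgG peaks, 1, became 0.5 there and 1.5 with 10 kb flanks, and the percent of a MYT1L list, 0.183, became 0.219 with 10 kb flanks. The 28 pathway genes became 12 with all 4 libraries. The fold of the strongest COL23A1 region, 17.4, stayed between 16.2 and 18.3 in its 9 alternatives. No paired analysis was possible because no result here comes from a test, and no label ties an IgG library to a MYT1L library beyond the number.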
